A study of Mus musculus with 12 samples.

Results

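The genes described here are 7 members of the Ms4a family, Ms4a4b, Ms4a4c, Ms4a4d, Ms4a6b, Ms4a6c, Ms4a6d and Ms4a7, in tumours of the mouse colon carcinoma line MC38. They were taken as every probe set that the array annotation gives to one of these symbols, or an alias of it, alone, which gave 14 probe sets for 7 of the 18193 genes that have a probe set. The members were chosen by measured values, namely their log2 levels and differences over the 4 groups of tumours, so their values are given as a description, without a test as support. Limma calls of members, and whether they stayed in other fits of the same arrays, are part of that description. RNA came from 12 tumours, 3 in each group, measured on Affymetrix arrays. All tumours grew from MC38 cells placed in the cecum of C57BL/6 mice, and all cells carried ishTDO2, an inducible hairpin against Tdo2, whose product opens the ring of tryptophan. The groups were APC-WT no Dox, APC-WT Dox, APC-KO no Dox and APC-KO Dox, where APC-KO cells lack APC, the scaffold that keeps beta-catenin low, and Dox is doxycycline in the drinking water, which switches the hairpin on. No tumours given Dox but lacking the hairpin were analysed here, and the effects of Dox and of the hairpin cannot be told apart. The labels used here give no age of the mice, and leave unstated whether each tumour came from its own animal and whether the APC-KO cells were 1 clone. P-values therefore measure no more than the spread among these 12 samples, part of which may be technical.

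MS4A proteins cross the membrane several times, with both ends in the cytoplasm, and many act as adaptors beside other receptors of white blood cells. The best known are CD20 (Ms4a1) on B cells and the beta chain of the high-affinity IgE receptor (Ms4a2) on mast cells and basophils. In the mouse the family has many copies of the Ms4a4 and Ms4a6 types. Ms4a4b is known from T cells, where its protein binds the costimulatory receptor GITR, Ms4a6d from macrophages, where its protein works with VSIG4, and Ms4a7 from tissue and tumour macrophages.

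The genes lie in a cluster of 21 Ms4a genes on chromosome 19, where Ms4a7 has place 12, Ms4a4c 14, Ms4a4b 15, Ms4a6c 16, Ms4a6b 17, Ms4a4d 18 and Ms4a6d 19 in the order of GRCm38.p6. RefSeq promoters of that build, each from 250 bases before to 50 bases after a start, were found for 6 of the 7 members, with 2 starts for Ms4a7. They are shown for the Ms4a4 genes and Ms4a7 because these are the members called in any comparison (limma adjusted p under 0.05). The capitals mark matches to motifs searched on both strands. The motifs were the core of the interferon-stimulated response element (GAAA, any 2 bases, GAAA), the gamma-activated site TTCNNNGAA, the PU.1 core GAGGAA and the AP-1 site TGANTCA; no match of one motif overlapped a match of another in these windows.
Ms4a4b, chr19:11443308-11443607, plus strand: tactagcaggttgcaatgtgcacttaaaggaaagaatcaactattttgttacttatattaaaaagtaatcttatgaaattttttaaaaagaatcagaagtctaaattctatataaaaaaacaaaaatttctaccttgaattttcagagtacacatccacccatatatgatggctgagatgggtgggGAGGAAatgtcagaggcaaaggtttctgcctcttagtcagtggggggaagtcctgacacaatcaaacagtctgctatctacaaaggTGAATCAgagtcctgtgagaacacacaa
Ms4a4c, chr19:11407411-11407710, plus strand: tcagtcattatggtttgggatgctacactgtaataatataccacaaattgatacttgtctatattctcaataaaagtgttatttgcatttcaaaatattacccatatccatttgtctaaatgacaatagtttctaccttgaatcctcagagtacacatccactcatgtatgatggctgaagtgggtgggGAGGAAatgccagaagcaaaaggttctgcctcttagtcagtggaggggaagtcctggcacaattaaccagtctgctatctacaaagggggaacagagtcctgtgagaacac
Ms4a4d, chr19:11536544-11536843, plus strand: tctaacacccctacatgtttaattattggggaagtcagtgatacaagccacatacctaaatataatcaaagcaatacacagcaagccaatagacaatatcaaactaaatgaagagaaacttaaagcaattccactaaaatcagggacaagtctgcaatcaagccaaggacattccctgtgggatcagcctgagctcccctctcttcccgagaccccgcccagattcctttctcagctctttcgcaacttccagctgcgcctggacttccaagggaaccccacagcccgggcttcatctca
Ms4a7, first start, chr19:11334646-11334945, minus strand: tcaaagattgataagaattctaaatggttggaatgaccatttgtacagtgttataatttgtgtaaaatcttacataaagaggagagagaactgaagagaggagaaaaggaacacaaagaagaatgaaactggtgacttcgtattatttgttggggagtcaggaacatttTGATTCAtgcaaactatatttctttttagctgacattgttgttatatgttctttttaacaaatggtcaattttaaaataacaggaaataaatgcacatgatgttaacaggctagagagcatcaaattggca
Ms4a7, other start, chr19:11336097-11336396, minus strand: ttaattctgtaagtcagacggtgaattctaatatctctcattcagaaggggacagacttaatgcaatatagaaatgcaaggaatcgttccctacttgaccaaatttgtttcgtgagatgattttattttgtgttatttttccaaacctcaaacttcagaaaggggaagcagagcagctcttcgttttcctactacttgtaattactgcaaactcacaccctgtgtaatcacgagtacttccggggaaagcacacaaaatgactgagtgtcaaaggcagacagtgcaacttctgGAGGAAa

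The windows of Ms4a4b and Ms4a4c each held GAGGAA, at -64 and -61 from the start, in a stretch where the sequences are alike. The letters GAGGAA were found in 28.3% of 32851 mouse promoter windows of this length, and in 3 of the 7 windows of the family, the third being that of the other Ms4a7 start at 43. TGANTCA was found in 7.81% of all windows and in 2 of the family's, as TGAATCA at 22 in Ms4a4b and as TGATTCA at -81 in the first Ms4a7 window. The interferon core, present in 3.44% of all windows, and the gamma-activated site, present in 8.3%, matched none of the 7, and the Ms4a4d window held no match to any of the 4. These are matches of letters and not measured sites.

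Among the 6 promoters, 2 pairs were closely alike, chosen for printing after the alignments were seen. The windows of Ms4a6b and Ms4a6c shared an unbroken run of 48 bases, and 192 of 233 aligned bases (82.4%) were identical. The run is in capitals below.
Ms4a6b, chr19:11518309-11518608, plus strand: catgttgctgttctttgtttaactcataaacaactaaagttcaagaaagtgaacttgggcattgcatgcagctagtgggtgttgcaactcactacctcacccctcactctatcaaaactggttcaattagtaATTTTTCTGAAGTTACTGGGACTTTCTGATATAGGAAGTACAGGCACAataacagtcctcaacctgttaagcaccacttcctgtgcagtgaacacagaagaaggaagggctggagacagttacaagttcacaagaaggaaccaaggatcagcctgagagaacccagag
Ms4a6c, chr19:11469118-11469417, plus strand: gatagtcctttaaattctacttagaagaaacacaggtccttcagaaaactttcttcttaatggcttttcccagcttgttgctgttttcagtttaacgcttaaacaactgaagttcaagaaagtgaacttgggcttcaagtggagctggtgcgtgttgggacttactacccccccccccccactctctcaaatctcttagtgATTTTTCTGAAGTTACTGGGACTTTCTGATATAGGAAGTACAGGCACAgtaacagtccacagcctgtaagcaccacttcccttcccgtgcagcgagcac

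Ms4a4b and Ms4a4c shared a run of 20 bases, with 226 of 297 aligned bases (76.1%) identical. Every other pair of windows shared at most 13 bases in a row and aligned over at most 90. Ms4a4d, although named as an Ms4a4 gene, was among these others, with a longest run of 9 bases in common with Ms4a4b and with Ms4a4c.

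Values are the deposited log2 values, and the brightest probe set stands for a gene. All 7 members had a mean at or above 5.55, the median of all probe sets, which was used as a floor for testing and left 11070 genes. The arrays of a group correlated at 0.995 to 0.998, and array medians lay between 5.535 and 5.576. The targeted gene could not be followed, because the 3 probe sets of Tdo2 had means of 2.59, 3.12 and 3.85, all under the floor. Of the 4 Apc probe sets, that with a mean of 7.27 was lower in APC-KO by 0.84 without Dox and by 0.94 with Dox (limma adjusted p = 1.024e-05 and 3.077e-06), while that with a mean of 8.39 differed by -0.10 and -0.24. The defining markers of white blood cells were present: 8 of 8 pan-leukocyte genes were at or above the floor, with a log2 summed level of 13.10 to 13.50 on every array, as were 15 of 16 measured macrophage and monocyte markers, at 14.99 to 15.18. Of 9 epithelial markers of the carcinoma cells only Epcam, Cdh1 and Krt8 were above the floor. Fewer cells of a type and less RNA per cell cannot be told apart in such bulk samples.

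Ms4a4d had the widest range of the family. On the 3 APC-WT no Dox arrays its log2 values were 7.74, 7.56 and 7.85, and on the APC-WT Dox arrays 5.48, 6.08 and 6.12. The APC-KO arrays gave 4.96, 4.58 and 5.41 without Dox and 4.77, 4.93 and 4.04 with Dox. From high to low the order was APC-WT no Dox, APC-WT Dox, APC-KO no Dox, APC-KO Dox, with group means ± SD of 7.72 ± 0.15, 5.90 ± 0.36, 4.98 ± 0.42 and 4.58 ± 0.48 (n = 3 each). Only the APC-KO groups overlapped, and each of their 6 arrays was under the floor.

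The fitted difference of Ms4a4d was -1.82 ± 0.24 (SE) for Dox in APC-WT and -0.40 ± 0.24 for Dox in APC-KO. Between genotypes it was -2.73 ± 0.24 for APC-KO against APC-WT without Dox, at least 4.48-fold lower when the mean of the APC-WT tumours is set against the floor, and -1.31 ± 0.24 with Dox. No fold is given for the other comparisons, in which arrays of both groups lay under the floor or 1 array of APC-WT Dox did. Among all 11070 genes the Dox difference in APC-WT and the genotype difference without Dox were each the third lowest, and that with Dox was the 27th lowest. When values under the floor were raised to it, the differences were -1.8, 0, -2.16 and -0.37 in the same order of comparisons. The call for Dox in APC-WT (limma adjusted p = 0.0146) was lost when any of 5 of its 6 arrays was left out, and stayed without APC-WT no Dox replicate 3. The 5 fits that lost it gave -1.81 and adjusted p = 0.1196 without APC-WT no Dox replicate 1, -1.90 and 0.0677 without its replicate 2, and -1.61 and 0.1416, -1.91 and 0.0647, and -1.93 and 0.0532 without APC-WT Dox replicates 1, 2 and 3. Both genotype differences stayed past the threshold in each of the 14 alternatives with a test, with values of -2.95 to -2.53 and -1.52 to -1.04. The alternatives reuse the values by which the gene was chosen, so they describe the fit and are no support.

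Ms4a4b was highest in APC-WT no Dox, at 9.49, 9.02 and 9.35. The other groups gave 8.52, 8.93 and 8.90 in APC-WT Dox, 8.60, 8.11 and 8.86 in APC-KO no Dox, and 8.98, 8.47 and 8.27 in APC-KO Dox. Each array of APC-WT no Dox lay above each of the others, and the other 3 groups overlapped one another. The differences were -0.50 ± 0.20 (SE) for Dox in APC-WT, 1.41-fold, and -0.76 ± 0.20 for APC-KO without Dox, 1.69-fold. They were 0.05 ± 0.20 for Dox in APC-KO and -0.21 ± 0.20 between genotypes under Dox. The genotype difference without Dox (limma adjusted p = 0.01385) became -0.66 (0.0584) without APC-WT no Dox replicate 1 and -0.55 (0.0577) without APC-KO no Dox replicate 2.

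Ms4a4c, a gene that appears in signatures of inflammatory monocytes, had another order of groups. Its values were 9.71, 9.46 and 9.29 in APC-WT no Dox, 8.52, 8.65 and 8.89 in APC-WT Dox, 9.02, 8.52 and 9.38 in APC-KO no Dox, and 9.49, 9.46 and 9.00 in APC-KO Dox. APC-WT Dox was the lowest group, below both APC-WT no Dox and APC-KO Dox without overlap, while APC-KO no Dox, with a spread of 0.43 (SD), overlapped all 3 others. Dox in APC-WT gave -0.80 ± 0.19 (SE), 1.74-fold and the 25th lowest of all genes, and Dox in APC-KO gave 0.34 ± 0.19, the 75th highest. APC-KO against APC-WT was -0.51 ± 0.19 without Dox and 0.63 ± 0.19 with Dox, so the sign turned between the Dox states. The second probe set of Ms4a4c followed the first (Pearson's r of 0.97 over 12 arrays), with -1.0, 0.50, -0.62 and 0.88 in the same order. The first is of a type that can match related sequences, and so is the second, so signal of close Ms4a copies cannot be set apart from that of Ms4a4c. The genotype difference under Dox (limma adjusted p = 0.03098) missed the threshold without APC-WT Dox replicate 1 (0.54, 0.1007), without its replicate 2 (0.61, 0.0916), without APC-KO Dox replicate 1 (0.54, 0.0998) and without its replicate 2 (0.56, 0.1051). The difference for Dox in APC-WT (0.1092) passed it without APC-WT no Dox replicate 3 (-0.90, 0.0376), and the genotype difference without Dox (0.06182) passed it without APC-KO no Dox replicate 3 (-0.71, 0.01405).

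**Figure D1:**
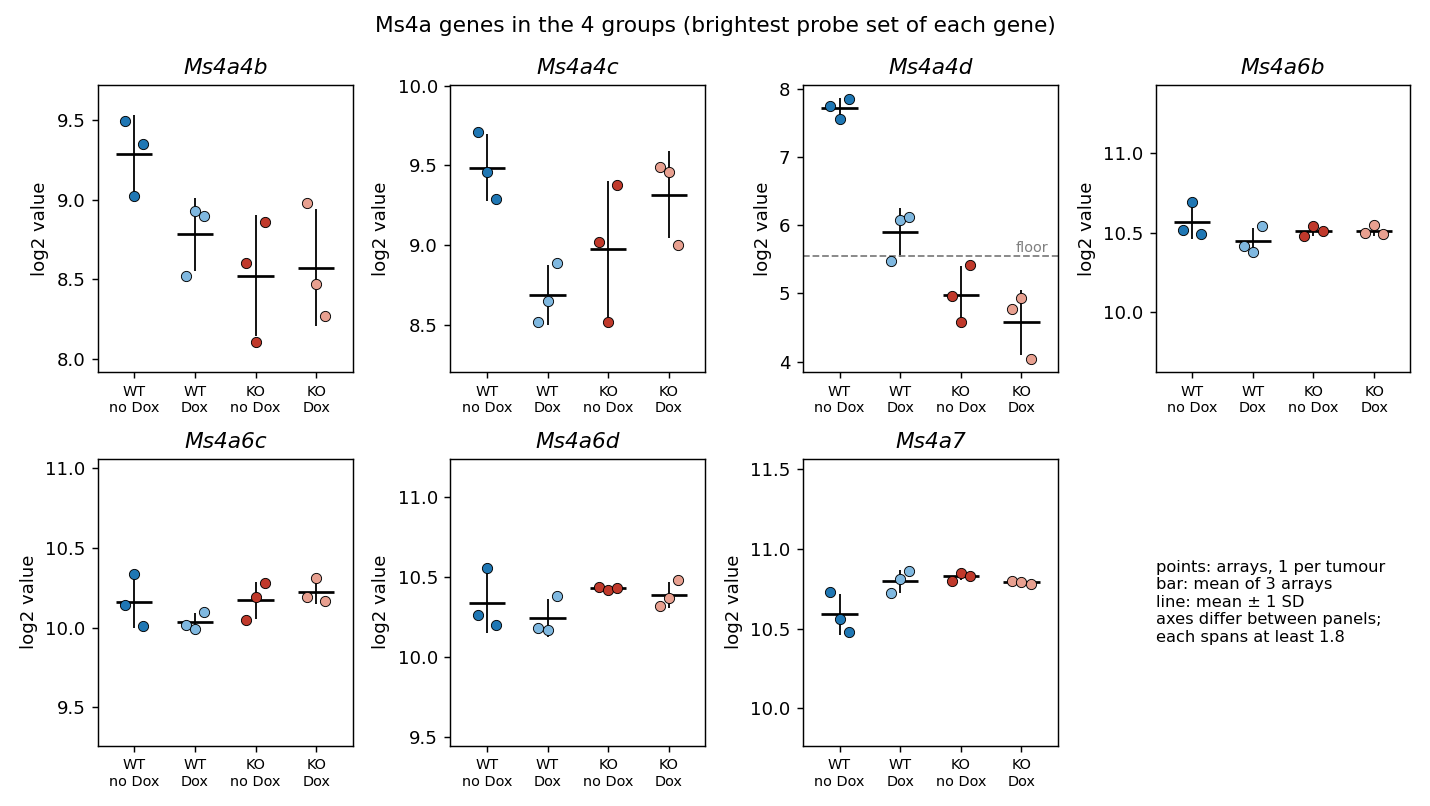
Log2 value of each Ms4a gene (y axis, 1 panel a gene, axes differ) on the 12 arrays in the 4 groups (x axis), as points with the mean of 3 arrays as a bar and 1 SD either way as a line; the dashed line is the floor of 5.55. Ms4a4d lies at 7.56 or more in APC-WT no Dox and at 5.41 or less in both APC-KO groups, while Ms4a6b lies between 10.38 and 10.69 on every array.

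The 3 Ms4a6 genes varied little. Ms4a6b gave 10.52, 10.69 and 10.49 in APC-WT no Dox, 10.42, 10.38 and 10.54 in APC-WT Dox, 10.48, 10.54 and 10.51 in APC-KO no Dox, and 10.50, 10.55 and 10.49 in APC-KO Dox. All 4 groups overlapped. Its differences ran from -0.12 ± 0.06 (SE), for Dox in APC-WT, to 0.07 ± 0.06, between genotypes under Dox.

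Ms4a6c, known from monocytes and their progenitors, gave 10.14, 10.34 and 10.01, then 10.02, 9.99 and 10.10, then 10.05, 10.19 and 10.28, and 10.19, 10.31 and 10.17, in the same order of groups. APC-KO Dox lay above APC-WT Dox without overlap, by 0.18 ± 0.08, and every other pair of groups overlapped. Ms4a6d gave 10.26, 10.56 and 10.20, then 10.18, 10.17 and 10.38, then 10.44, 10.42 and 10.43, and 10.32, 10.37 and 10.48. Its differences lay between -0.10 ± 0.08 and 0.15 ± 0.08, and the groups of every comparison overlapped. The brightest probe set of Ms4a6d is also of a type that can match related sequences. For the brightest probe sets of the Ms4a6 genes none of the 4 differences between groups reached 0.2 in size.

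Set against APC-WT no Dox, Ms4a7 lay the other way from the Ms4a4 genes. It gave 10.73, 10.56 and 10.48 in APC-WT no Dox, 10.72, 10.81 and 10.86 in APC-WT Dox, 10.80, 10.85 and 10.83 in APC-KO no Dox, and 10.80, 10.79 and 10.78 in APC-KO Dox. APC-WT no Dox was the lowest group, and the other 3 had means of 10.80, 10.83 and 10.79 that differed by less than the spread of APC-WT Dox. The difference was 0.21 ± 0.06 (SE) for Dox in APC-WT, 1.16-fold, with overlap, and 0.24 ± 0.06 for APC-KO without Dox, 1.18-fold, without overlap. Dox in APC-KO and the genotypes under Dox gave -0.04 and -0.01.

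Within the family the members differed among themselves. For Dox in APC-WT, 6 of 7 differences were below 0 and their median was -0.12, against -0.008 over all genes tested. Only Ms4a4d was called lower and no member higher, where 0.0181% of all genes were called lower, 0.00903% higher and 0.0271% in either direction. The 3 Ms4a4 genes were lower without overlap and no member was higher without overlap, as were 10.3% and 11% of all genes. Dox in APC-KO gave a median of 0.01 and no member called, where 0.542% of genes were called, 0.506% lower and 0.0361% higher. Every member overlapped there, while 17.7% of all genes did not.

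For APC-KO against APC-WT without Dox, Ms4a4d and Ms4a4b were called lower and Ms4a7 higher, and the median was -0.06. Of all genes 24.9% were called there, 11.1% lower and 13.8% higher. The same 2 members were lower and Ms4a7 higher without overlap, as were 16.4% and 20.8% of all genes. Under Dox Ms4a4d was called lower and Ms4a4c higher, and the median was 0.07. Of all genes 19.9% were called there, 7.99% lower and 11.9% higher. Without overlap 1 member, Ms4a4d, was lower and 2, Ms4a4c and Ms4a6c, were higher, as were 18% and 23.4% of all genes. Since these comparisons chose the family, nothing is read from the counts.

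The difference between the Dox responses of the genotypes was above 0 for 6 of 7 members. It was 1.42 ± 0.34 (SE) for Ms4a4d, the third highest of all genes, 1.14 ± 0.27 for Ms4a4c, the 8th highest, and 0.55 ± 0.28 for Ms4a4b. It was 0.13, 0.17 and 0.06 for Ms4a6b, Ms4a6c and Ms4a6d, and -0.24 ± 0.09 for Ms4a7. No member was called, and neither was any other gene (0% of 11070, smallest limma adjusted p = 0.1292, with 1312 genes at an unadjusted p under 0.05). For Ms4a4d the 6 APC-KO arrays lay under the floor, so its Dox difference there is bounded by the floor.

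**Figure D2:**
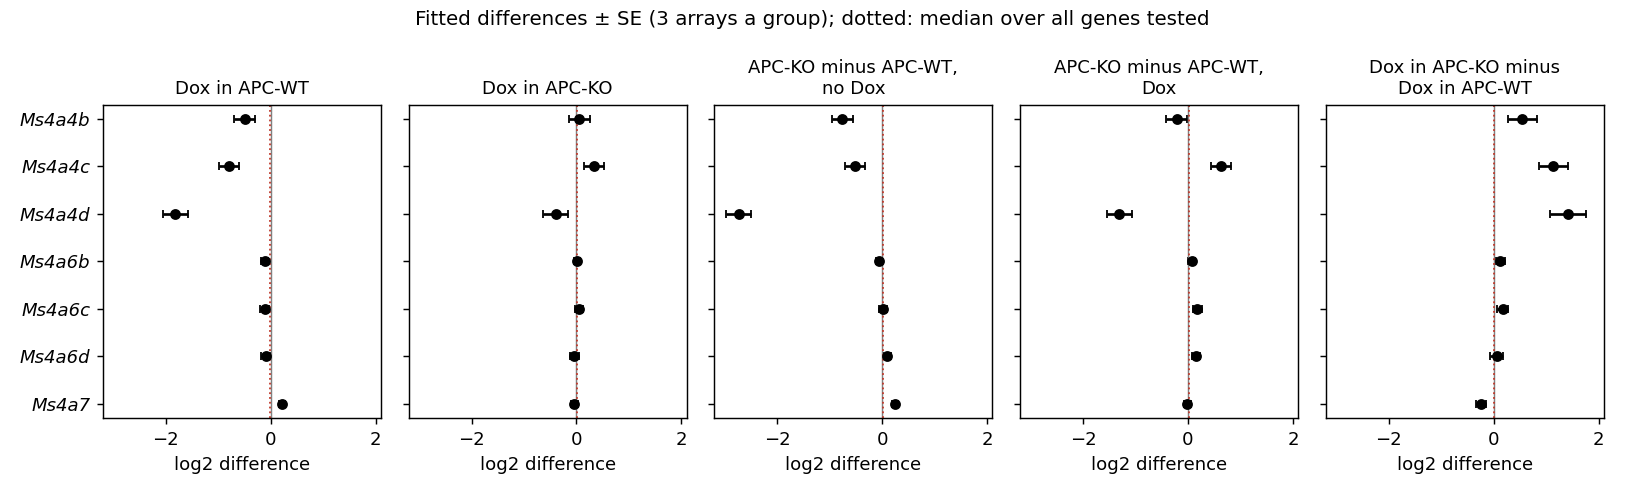
Fitted log2 difference with its SE (x axis) of each Ms4a gene (y axis) in the 5 comparisons, 3 arrays a group, with the median of all genes tested as a dotted line. The Ms4a4 genes lie left of 0 for Dox in APC-WT, at -0.50, -0.80 and -1.82, and the Ms4a6 genes and Ms4a7 lie within 0.25 of 0 in every panel.

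The remaining probe sets of the members did not all follow the brightest. The second probe set of Ms4a4b had a mean of 3.00 and differences between -0.10 and 0.01, and it followed the first only weakly (r of 0.16 over 12 arrays). The dimmer probe sets of Ms4a6c and Ms4a7 had means of 5.44 and 5.43, under the floor as well, with r of 0.25 and 0.67 to the brightest. That of Ms4a7 gave 5.70, 5.68 and 5.65 in APC-KO Dox, above the floor, and 5.14, 5.32 and 5.38 in APC-WT Dox, under it. Its difference between genotypes under Dox was 0.40 ± 0.11 (SE), where the brightest gave -0.01, and without Dox it was 0.26 ± 0.11, where the brightest gave 0.24. For Ms4a6c the dimmer probe set gave -0.07 ± 0.10 between genotypes under Dox, against 0.18 for the brightest. For Ms4a6d the second probe set (10.06) gave r of 0.93 and the third (2.41) gave -0.12, with differences of -0.23 to 0.21. The second of Ms4a6b (7.52), above the floor, gave r of 0.79. Its difference was -0.26 ± 0.13 for APC-KO without Dox, where the brightest gave -0.06. Between the Dox responses of the genotypes it gave 0.37 ± 0.18, where the brightest gave 0.13. Ms4a4d had 1 probe set, so its values have no second reading.

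**Figure D3:**
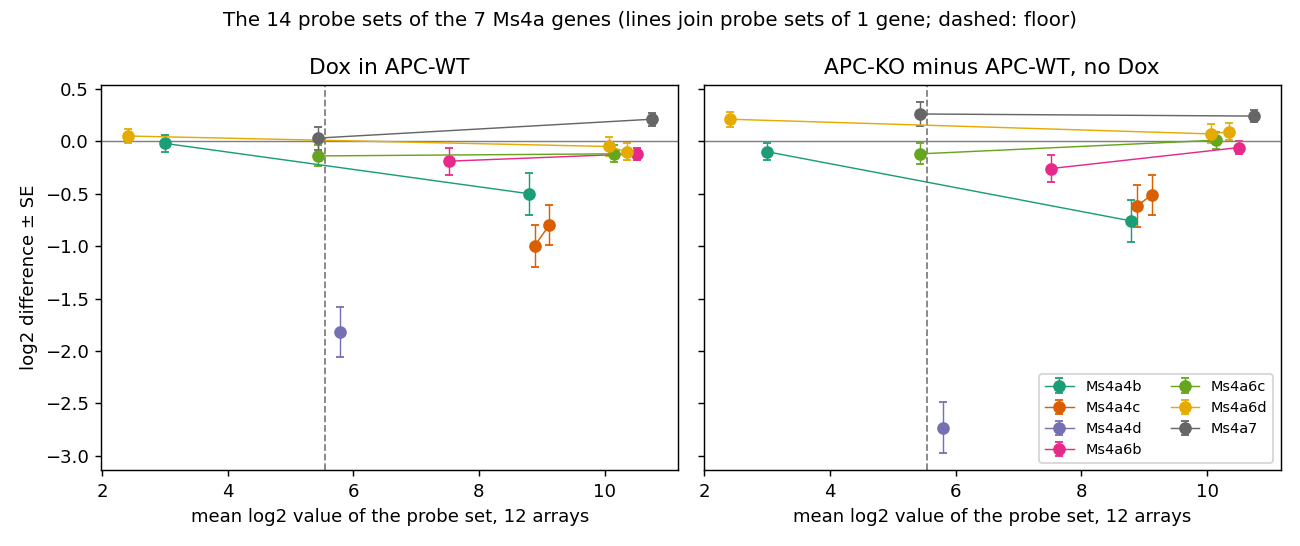
Fitted log2 difference with its SE (y axis) of the 14 probe sets against their mean log2 value on the 12 arrays (x axis), for Dox in APC-WT (left) and for APC-KO minus APC-WT without Dox (right), with lines between probe sets of 1 gene and the floor dashed. The pair of Ms4a4c, with means of 9.12 and 8.89, agrees within its errors, while the second of Ms4a4b, at 3.00, sits at -0.02 and -0.10.

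Over the 12 arrays the members were also set against one another. Pearson's r was 0.85 for Ms4a4b with Ms4a4d, 0.61 for Ms4a4b with Ms4a4c and 0.40 for Ms4a4c with Ms4a4d. After each group's mean was subtracted, which leaves the spread between tumours of a group, these became 0.79, 0.79 and 0.81. Among the Ms4a6 genes r was 0.79, 0.74 and 0.73, and 0.84, 0.85 and 0.65 within groups. Between the types, r with Ms4a6b, Ms4a6c and Ms4a6d was 0.07, -0.18 and -0.38 for Ms4a4b, 0.51, 0.52 and 0.22 for Ms4a4c and 0.27, -0.15 and -0.29 for Ms4a4d. Ms4a4c thus had r with Ms4a6b and Ms4a6c above its 0.40 with Ms4a4d. Within groups the values for Ms4a4c were 0.15, 0.34 and 0.03. For Ms4a7 with Ms4a4b, Ms4a4c and Ms4a4d r was -0.51, -0.33 and -0.72 over the arrays, but 0.3, 0.43 and 0.18 within groups. These values describe 12 arrays and share the levels of the groups.

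The genes whose pattern was most like each member were ranked by r over the 12 arrays among 10705 genes. For Ms4a4d they were Isg20, an interferon-induced exonuclease (r of 0.99, 0.89 within groups), Casp4, the inflammatory caspase that senses lipopolysaccharide (0.97), and Ifi27, an interferon-induced gene (0.96, but 0.52 within groups). For Ms4a4b they were Rsad2, which encodes the antiviral protein viperin (0.96, 0.94 within groups), Cxcl11, an interferon-induced chemokine (0.95), and Acap1 (0.95). For Ms4a4c they were the lysophosphatidic acid receptor Lpar4 (0.93), the haem-responsive repressor Bach1 (0.92) and Trim30a (0.91).

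The Ms4a6 genes and Ms4a7 had other neighbours in pattern. Smc4, a condensin subunit, stood first for Ms4a6b (0.86) and for Ms4a6d (0.91), and the lysosomal cystine carrier gene Ctns for Ms4a6c (0.91). For Ms4a7 it was Armc1 (0.88), with a rank correlation of 0.62. The ranges of these genes were small, as Smc4 had group means of 11.83 to 11.89.

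Interferon-stimulated genes, 20 of 24 listed with a probe set of their own and all 20 tested, were followed beside the Ms4a4 genes. For Dox in APC-WT all 20 had a difference below 0, with a median of -0.54 against -0.008 over all genes, and none passed in limma. At an unadjusted p under 0.05 there were 17 of the 20, and 1716 of all 11070 genes, and with array weights in the fit 6 of the 20 passed. The smallest p of the list was that of Stat2, a signal carrier of type I interferon, at -0.60 ± 0.14 (SE, limma adjusted p = 0.1049). In APC-KO Dox gave a median of -0.02 and 1 gene lower, the GTPase gene Gbp2 (-0.75 ± 0.15, limma adjusted p = 0.0375), a call lost in 7 of the 12 fits that left out 1 array. For APC-KO against APC-WT without Dox 14 of 20 were lower and none higher, where 11.1% of all genes were lower, and the median was -0.63. Usp18, which damps the receptor (-1.16 ± 0.28), Stat2 (-0.93 ± 0.14), the transcription factor Irf7 (-0.90 ± 0.25) and Cmpk2 (-0.82 ± 0.23) changed most. Without replicate 1 of APC-WT no Dox 6 genes were called, and 8 without replicate 2 of APC-KO no Dox. Under Dox 2 were lower, Gbp2 (-0.85) and the nucleic acid sensor Zbp1 (-0.54, adjusted p = 0.04915), and 8 of the 12 fits that left out 1 array called 1 gene of the list, where 7.99% of all genes were, and the median was -0.10. Their log2 summed level was 14.25 to 14.56 in APC-WT no Dox, 13.71 to 14.12 in APC-WT Dox, 13.53 to 14.17 in APC-KO no Dox and 13.42 to 13.91 in APC-KO Dox.

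The median r with these 20 genes was 0.87 for Ms4a4b, 0.71 for Ms4a4c and 0.81 for Ms4a4d, and 0.80, 0.90 and 0.87 within groups. For Ms4a6b, Ms4a6c and Ms4a6d it was 0.28, 0.01 and -0.19, and for Ms4a7 it was -0.51 over the arrays but 0.27 within groups. Over all genes tested these medians lay between -0.05 and 0.06. Pooled over the groups, tumours above their group mean in interferon-stimulated genes thus tended to be above it in the 3 Ms4a4 genes. No group was looked at by itself.

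**Figure D4:**
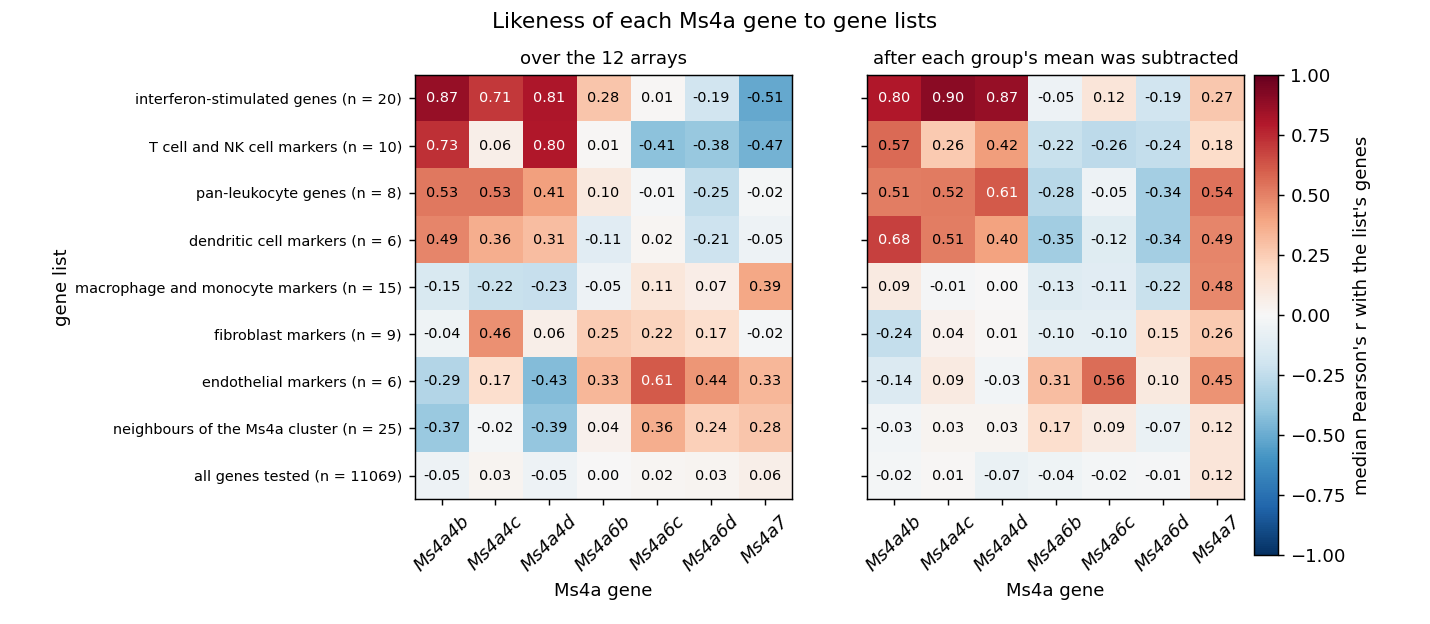
Median Pearson's r of each Ms4a gene (x axis) with the genes of a list (y axis, number tested in brackets), over the 12 arrays (left) and after each group's mean was subtracted (right), with colour and number giving r. The 3 Ms4a4 genes stand at 0.71 to 0.90 in the row of interferon-stimulated genes in both panels, and the Ms4a6 genes between -0.19 and 0.28.

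Markers of T cells and NK cells also moved with Ms4a4b and Ms4a4d by their median, though not every marker did. Of 14 measured, 10 were tested. In APC-KO 8 of them were lower without Dox (median -0.71) and 7 with Dox (median -0.68), where 11.1% and 7.99% of all genes were lower. The largest without Dox were Cd8b1 and Cd3g, parts of the CD8 co-receptor and of the T cell receptor complex, at -1.05 ± 0.20 and -0.97 ± 0.23 (SE, limma adjusted p = 0.001806 and 0.008707). Dox gave medians of -0.30 in APC-WT and -0.25 in APC-KO, with none called by limma and 4 and 3 at an unadjusted p under 0.05. The log2 summed level of the 14 was 10.46 to 10.86 in APC-WT no Dox, 10.17 to 10.52 in APC-WT Dox, 9.99 to 10.09 in APC-KO no Dox and 9.71 to 10.25 in APC-KO Dox. The median r with the list was 0.73 for Ms4a4b and 0.80 for Ms4a4d, but 0.06 for Ms4a4c, and 0.57, 0.42 and 0.26 within groups. Over the arrays r with single markers ran from -0.08 to 0.94 for Ms4a4b and from -0.39 to 0.89 for Ms4a4d. With dendritic cell markers the median r was 0.49 for Ms4a4b and 0.31 for Ms4a4d, and 0.68 and 0.40 within groups. With pan-leukocyte genes it was 0.53 and 0.41, and 0.51 and 0.61 within groups. The likeness within groups was thus not particular to T cell and NK cell markers. Whether the share of T cells had a part in the Ms4a4b and Ms4a4d values was not tested.

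The other marker lists gave different values. Pan-leukocyte genes had medians of -0.13 and -0.02 for Dox in the APC-WT and in the APC-KO tumours, and of -0.05 and -0.01 for the genotypes without and with Dox, and none of the 8 was called by limma, with 2, 0, 1 and 1 at an unadjusted p under 0.05. Macrophage and monocyte markers had medians of 0.02, -0.09, 0.09 and 0.02 in that order. Without Dox 4 of the 15 were higher in APC-KO, namely the fractalkine receptor gene Cx3cr1 (0.40), Cd14 (0.38), Mertk (0.29) and Csf1r (0.28), where 13.8% of all genes were higher; Ms4a7 gave 0.24 there. Ms4a7 had a median r of 0.39 with these markers over the arrays, against -0.23 to 0.11 for the other members. Within groups it was 0.48, but also 0.54 with pan-leukocyte genes, 0.49 with dendritic cell markers and 0.45 with endothelial markers. Over all genes tested it was 0.12 there. With Dox 2 of the macrophage and monocyte markers were higher in APC-KO, where 11.9% of all genes were. They were Ccr2, the chemokine receptor of inflammatory monocytes (0.77 ± 0.17, SE), and Mertk (0.38 ± 0.08). Among these markers 1 was lower, the lysozyme gene Lyz2 (-0.37 ± 0.06), where 7.99% of all genes were. Ms4a6c had a median r of 0.61 with the 6 tested endothelial markers, and 0.56 within groups. Over the arrays this median was 0.44 for Ms4a6d, and 0.33 for both Ms4a6b and Ms4a7. In the comparison in which the Ms4a6c arrays did not overlap, APC-KO with Dox, 3 of these markers were higher, where 11.9% of all genes were. They were Cdh5, the cadherin of vessel walls (0.56 ± 0.12, SE), Emcn (0.39 ± 0.12) and the VEGF receptor gene Kdr (0.30 ± 0.09). Vwf was lower (-0.52 ± 0.13), where 7.99% of all genes were. The part of endothelial cells in the Ms4a6c values was not tested.

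Of the neutrophil markers 3 of 6 measured were tested. For Dox in APC-KO S100a8 and S100a9, which form calprotectin, gave -4.07 ± 0.64 and -4.30 ± 0.70 (SE, limma adjusted p = 0.0113 and 0.01333), where 0.506% of all genes were called lower. Csf3r gave -0.17 ± 0.09. In APC-KO without Dox all 3 were higher, by 2.94, 3.13 and 0.41, where 13.8% of all genes were. Under Dox they gave -2.13, -2.35 and 0.18, the first 2 called, where 7.99% of all genes were called lower. The log2 summed level of the 6 was 7.62 to 8.49 in APC-WT no Dox, 8.27 to 9.36 in APC-WT Dox, 9.04 to 10.87 in APC-KO no Dox and 7.56 to 7.99 in APC-KO Dox. The epithelial markers had a log2 summed level of 10.47 to 11.79 in APC-WT no Dox, 9.90 to 10.09 in APC-WT Dox, 9.81 to 10.45 in APC-KO no Dox and 8.95 to 9.68 in APC-KO Dox. This order of groups differs from that of Ms4a4d only in its middle. The single markers did not share it: r of Ms4a4d with the 3 tested ran from -0.72 to 0.73. The median was 0.17 over the arrays and -0.18 within groups. Of the 3 tested epithelial markers, Krt8 was lower in APC-KO without Dox (-1.22 ± 0.41, SE), where 11.1% of all genes were. Cdh1 was higher in APC-KO with Dox (0.63 ± 0.17), where 11.9% of all genes were. The remaining 6 of 9 lay under the floor. The part of these cells in the Ms4a values was not tested.

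Genes of the proteins that MS4A proteins are reported to work with were followed too, 10 of 12 being tested. For Dox limma called none of them in either genotype, with 3 and 4 at an unadjusted p under 0.05 in APC-WT and APC-KO. Without Dox 4 were higher in APC-KO, the inhibitory IgG receptor gene Fcgr2b (0.26 ± 0.07, SE), the signalling chains Tyrobp (0.24 ± 0.07) and Fcer1g (0.22 ± 0.05) and the IgG receptor gene Fcgr3 (0.17 ± 0.06), and 1 was lower, where 13.8% and 11.1% of all genes were. The lower one was Tnfrsf18, which encodes GITR, the partner of MS4A4B, at -0.61 ± 0.13 (limma adjusted p = 0.004352), beside Ms4a4b at -0.76. For Dox in APC-WT Tnfrsf18 gave -0.51 ± 0.13 (0.1226), beside Ms4a4b at -0.50. Of the 5 calls 3 were made when replicate 2 of APC-WT no Dox was left out, and 3 when replicate 1 of APC-KO no Dox was. With Dox Fcer1g alone passed (0.17 ± 0.05, 0.04261), a call that was lost in 8 of the 12 fits that left out 1 array. Vsig4, the partner of MS4A6D, had a mean of 4.01 and Fcer1a, the IgE-binding chain, 2.97, both under the floor.

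Of 16 other genes of the family 12 had a probe set, and 3 were tested. Tmem176b, a cation channel gene of dendritic cells and macrophages, was lower in APC-KO by 0.20 ± 0.07 (SE, limma adjusted p = 0.04924) without Dox and by 0.21 ± 0.07 (0.04801) with Dox. It lay close to the threshold: of the 12 fits that left out 1 array, 10 lost the call without Dox and 7 lost that with Dox. The probe sets of Tmem176a disagreed: the brightest (mean 10.51) gave -0.11 ± 0.07 in both comparisons, and another (mean 10.00) gave -0.52 ± 0.08 and -0.39 ± 0.08 (limma adjusted p = 0.0003769 and 0.004887 over all probe sets). Ms4a15 gave -0.03 and -0.02. The 9 others lay under the floor, at means of 2.28 to 4.83, among them Ms4a1 (4.18), Ms4a2 (3.25) and Ms4a3 (4.48). Markers of B cells and mast cells were low as well, with 1 of 8 measured B cell markers and 1 of 7 mast cell and basophil markers at or above the floor.

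The neighbours of the cluster on chromosome 19, 25 tested genes, set the Ms4a4 differences beside those of nearby genes. For Dox limma called none of them in either genotype, with medians of -0.02 and -0.06 and 7 and 3 genes at an unadjusted p under 0.05. In APC-KO without Dox 7 were higher and 1 lower, where 13.8% and 11.1% of all genes were, led by Tmem132a (0.82 ± 0.08, SE), Mrpl16 of the mitochondrial ribosome (0.37 ± 0.07) and Ccdc86 (0.36 ± 0.09). The lower one was Cd6, a T cell receptor of the scavenger type (-0.36 ± 0.11). With Dox 5 were higher, where 11.9% of all genes were, and 3 without APC-WT Dox replicate 3 or without APC-KO Dox replicate 2. Within the cluster Ms4a4d lay between Ms4a6b and Ms4a6d, whose differences without Dox were -0.06 and 0.09, against -2.73 for Ms4a4d.

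**Figure D5:**
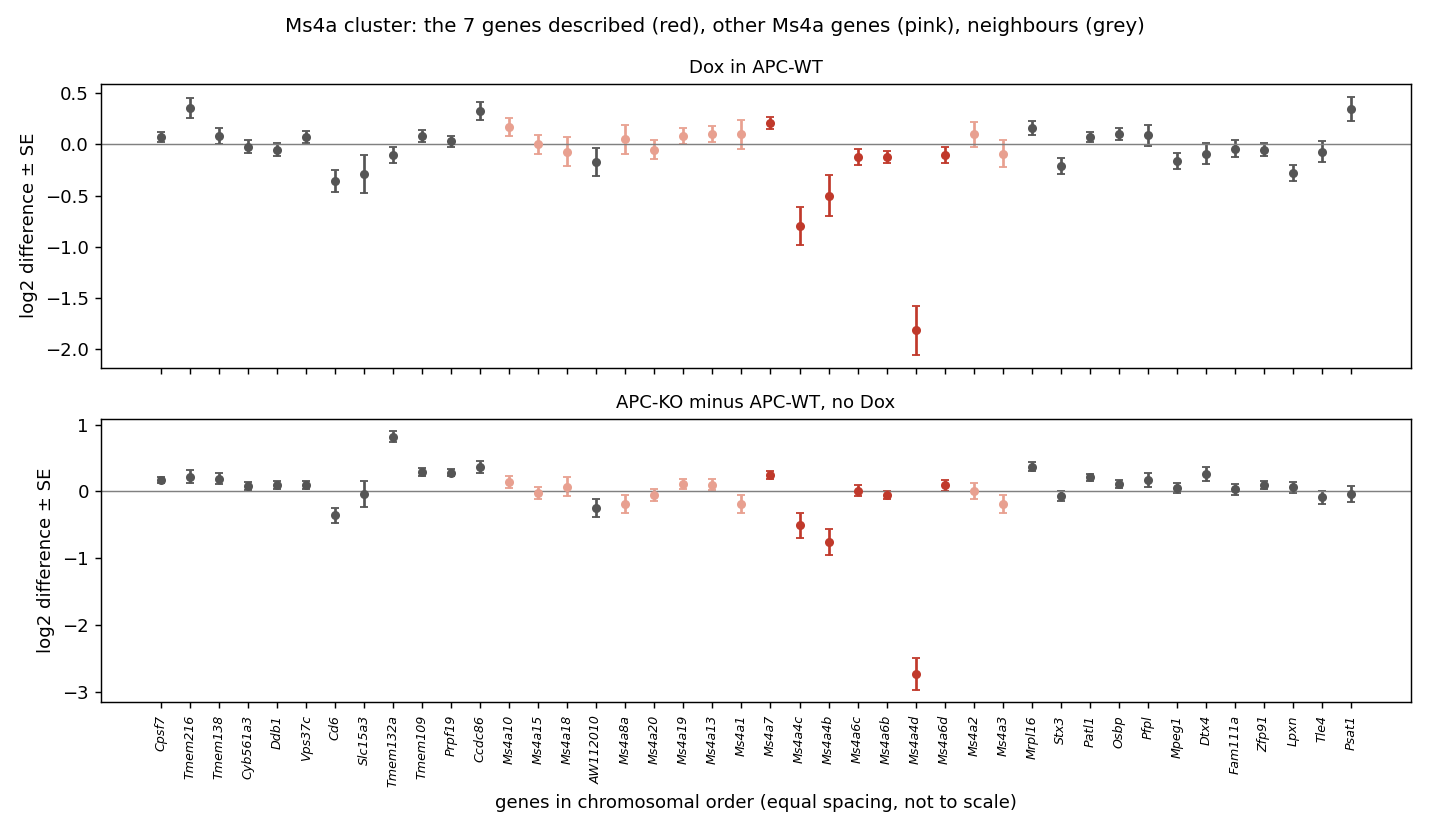
Fitted log2 difference with its SE (y axis) for genes of the Ms4a cluster and its neighbours in chromosomal order at equal spacing (x axis), for Dox in APC-WT (top) and for APC-KO minus APC-WT without Dox (bottom); red are the 7 members, pink other Ms4a genes, which except Ms4a15 lay under the floor, and grey neighbours. Ms4a4d stands at -1.82 and -2.73 between Ms4a6b, at -0.12 and -0.06, and Ms4a6d, at -0.10 and 0.09.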

How the data were processed

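RNA of 12 tumours was measured on Affymetrix arrays. The authors deposited normalized expression on a log2 scale; MAS5 is named per the submitters' processing notes, without settings or scaling. That the scale is log2 was read from the values. Of 45101 probe sets, 64 were controls. The probe set of highest mean stood for a gene, and 11070 of 18193 genes with a mean at or above 5.55, the median of the other probe sets, were tested. A model of 4 group means was fitted with limma 3.58.1 in R 4.3.3 (eBayes with a trend), with 5 contrasts, 2-sided, and Benjamini-Hochberg adjustment over 11070 genes at 0.05; the code was checked on simulated data. A fold against a group wholly under the floor is a bound from the floor. Promoters come from RefSeq (GRCm38.p6), and were aligned locally with Biopython 1.88; protein sequences were not used here. A summed level is log2 of the sum of linear values over a list's measured genes.

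Members and lists were chosen with earlier results of these data known. The naming rule took every member, and from each list up to 4 genes, first the passing ones in order of change and then the rest in order of p. Fcgr3 was named to complete a count after its value was seen. Alternatives were another filter, another use of probe sets, quantile normalization, no trend, only the groups compared, array weights, the replicate number as a block and leaving out each array. Raising values to the floor was added after the data were seen. With 3 tumours a group an exact test reaches no p below 0.1, so only the model was used. No array duplicated another.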

Additional observations from a re-analysis of the deposited data

How the results depend on the processing

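For the 7 members, 568 of 602 alternative values kept their direction and their side of the threshold or moved by less than 1 SD, and none reversed a called value; the medians of the family stayed within the spread between replicates in every alternative. The calls of Ms4a4b and Ms4a4c, and of Ms4a4d for Dox in APC-WT, changed with single arrays, as given above. The call of Ms4a4d for Dox in APC-WT was also lost with the mean of probe sets (adjusted p = 0.0652), where no gene was called. Ms4a4c for Dox in APC-WT passed with array weights (0.0187) and when only its 2 groups were fitted (0.0477), and Ms4a4b without Dox was lost with array weights (0.0613). The cause was not tested.

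Genes called for Dox in APC-WT, 3 as fitted, were 0 with the mean of probe sets, 36 with every probe set tested, 18 with only the groups compared, 653 with array weights and 6 with the replicate block. For Dox in APC-KO, 60 as fitted, they were 143 with every probe set tested, 36 with only the groups compared, 35 with the mean of probe sets and 29 without a trend. Every probe set gave 5518 and 4284 calls for the genotypes without and with Dox, where more features were tested, and array weights gave 3510 with Dox and 13 for the interaction. With array weights the interferon-stimulated genes called were 6 for Dox in APC-WT and 9 for APC-KO without Dox, the partners 2 for Dox in APC-WT and 2 for APC-KO with Dox, and the neighbours 2 for Dox in APC-WT.

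Leaving out 1 array gave 0 to 418 genes for Dox in APC-WT, 1 to 92 for Dox in APC-KO, 2150 to 2739 and 1291 to 2354 for the genotypes without and with Dox, and 0 to 119 for the interaction. The 418 came without APC-WT no Dox replicate 3, as did the 119, and the 1 without APC-KO Dox replicate 3. The interferon-stimulated genes called ranged from 0 to 1 for Dox in APC-WT, 0 to 1 for Dox in APC-KO, 6 to 16 for APC-KO without Dox and 1 to 2 with Dox. The other genes of the family called, Tmem176b alone as fitted, ranged from 0 to 1 in both genotype comparisons. The partners ranged from 0 to 1 for Dox in APC-KO, 3 to 6 without Dox and 0 to 1 with Dox, and the neighbours from 0 to 3 for Dox in APC-WT and 3 to 5 for APC-KO with Dox.

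The labels do not say whether a replicate number marks a shared animal, day or batch. Over 18 pairs of same-numbered arrays the deviations from the group means correlated at -0.22 to 0.17. The 3 pairs over 0.1 were all of replicate 2, and 5 of 12 arrays correlated best with their own number. With so few arrays a group these correlations cannot settle what the numbers mark. With the replicate block the interferon-stimulated genes called were 0 for Dox in APC-KO and 1 for APC-KO with Dox. The neighbours called were 1 for Dox in APC-KO, and the other genes of the family 0 in both genotype comparisons. The number of arrays limits the precision, and signal over background limits Ms4a4d, whose APC-KO arrays lay under the floor.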
